A study of Homo sapiens with 4 samples.

Results

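The cytosolic DNA sensing genes CGAS, STING1, IFI16, SAMHD1, TREX1 and AIM2 were followed in NCI-H1944, a line of human lung adenocarcinoma labelled wild type, through 4 sequencing libraries. They were found by the gene name that the deposited tables attach to each stranded genomic region, and they make up 6 of 27574 gene names. Regions named for them numbered 428 of 2310971 in the table of total RNA and 785 of 3814162 in the table of antibody-bound RNA. The cells had been given 100 nM BAY-1217389, an inhibitor of the mitotic checkpoint kinase MPS1 (gene TTK), or the solvent DMSO for 48 h, and were then kept without drug for 24 h. Of each lysate 10% gave the total RNA (Input), and J2, an antibody against double-stranded RNA (dsRNA), was used to pull RNA from the remainder. Inhibitor (MPS1i) and DMSO cells thus gave 1 Input and 1 J2 library each, 4 groups of 1 library from the same line, so every difference below compares libraries, has no replicate check and carries no p-value.

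DNA outside the nucleus is read by CGAS, an enzyme that makes the second messenger cGAMP, and cGAMP activates STING1, a membrane adaptor that leads to interferon induction through TBK1 and IRF3. IFI16 and AIM2 bind DNA directly, and AIM2 assembles an inflammasome. TREX1 is an exonuclease that degrades cytosolic DNA and SAMHD1 hydrolyses the nucleotides that DNA synthesis needs, and loss of either is known to raise interferon. IFI16, AIM2, SAMHD1, TREX1 and CGAS are all known as genes that interferon can induce in some cells.

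The Input libraries held 6381610 (DMSO) and 4844956 (MPS1i) counts and the J2 libraries 9793355 (DMSO) and 6697479 (MPS1i), and every level below is given as CPM, the count divided by that sum and scaled to 1e+06. The reads of DMSO Input were spread over 940751 regions and those of MPS1i Input over 484849, against 1208576 and 1176736 in J2. The median gene had a log2 ratio of MPS1i over DMSO of -0.26 in Input and -0.26 in J2, and the TMM scaling of edgeR moved these medians to 0.01 and -0.01, so that a gene at the median lies at -0.26 on the scale used here. A gene was called higher or lower when the compared counts summed to at least 50, the ratio was at least 2-fold and its exact 95% counting interval (Clopper-Pearson) excluded 1. Intervals cover counting error only, and the tables do not say whether reads are independent molecules. Of 8 lung epithelial markers, 4 could be compared in Input and 3 in J2 and none was called; summed counts of the list ran from 476 to 959 per library. Leukocyte markers (10 genes) summed to between 25 and 106 counts and fibroblast markers (7 genes) to between 4 and 9. TTK itself fell from 235 to 62 counts in Input (log2 -1.52, interval -1.95 to -1.12) and stood at 492 and 247 counts in J2 (-0.44, not called).

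Of the 6 genes, CGAS, IFI16, SAMHD1 and TREX1 had enough counts to be compared in both tables when the regions named for a gene were summed on its own strand, without regions annotated as Intergenic. In Input IFI16 was called higher and CGAS lower, against a background of 10.6% of 10774 genes called higher and 18.5% called lower. In J2 the calls were the same, against 13.0% of 11837 genes called higher and 22.6% called lower. With TMM scaling the calls over all genes became 1582 higher and 1249 lower in Input in place of 1138 and 1992, and 2057 and 1810 in J2 in place of 1538 and 2675. AIM2 held at most 5 counts in any library, and STING1 held none. The name in the tables is that of the nearest annotated start, not of the gene a region lies in, and for SAMHD1, TREX1, AIM2 and part of CGAS the regions lay in, or were named for, a neighbour. Regions were therefore also placed on the gene models of GENCODE release 29 and summed over all regions that overlap a gene on its strand, whatever their name. Both sums are given below. In the second sum IFI16 and SAMHD1 were called higher and CGAS lower in both tables, against 12.4% higher and 16.4% lower of 11395 genes in Input and 15.5% higher and 20.1% lower of 12530 genes in J2. Almost none of these regions touched an exon of the gene: 2 of 112 in CGAS, 0 of 104 in IFI16 and 5 of 119 in SAMHD1 in the J2 table. For CGAS and IFI16 the sums thus measure mainly intronic RNA and say little of spliced transcripts. By reads SAMHD1 differed in J2: exon-touching regions of 92 and 125 bases held 71 and 32 of its 183 DMSO counts. In MPS1i they held 229 and 102 of 522, so its J2 sum cannot be taken as intronic RNA alone. No measure here separates fewer cells with the RNA from less RNA per cell.

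**Figure D1:**
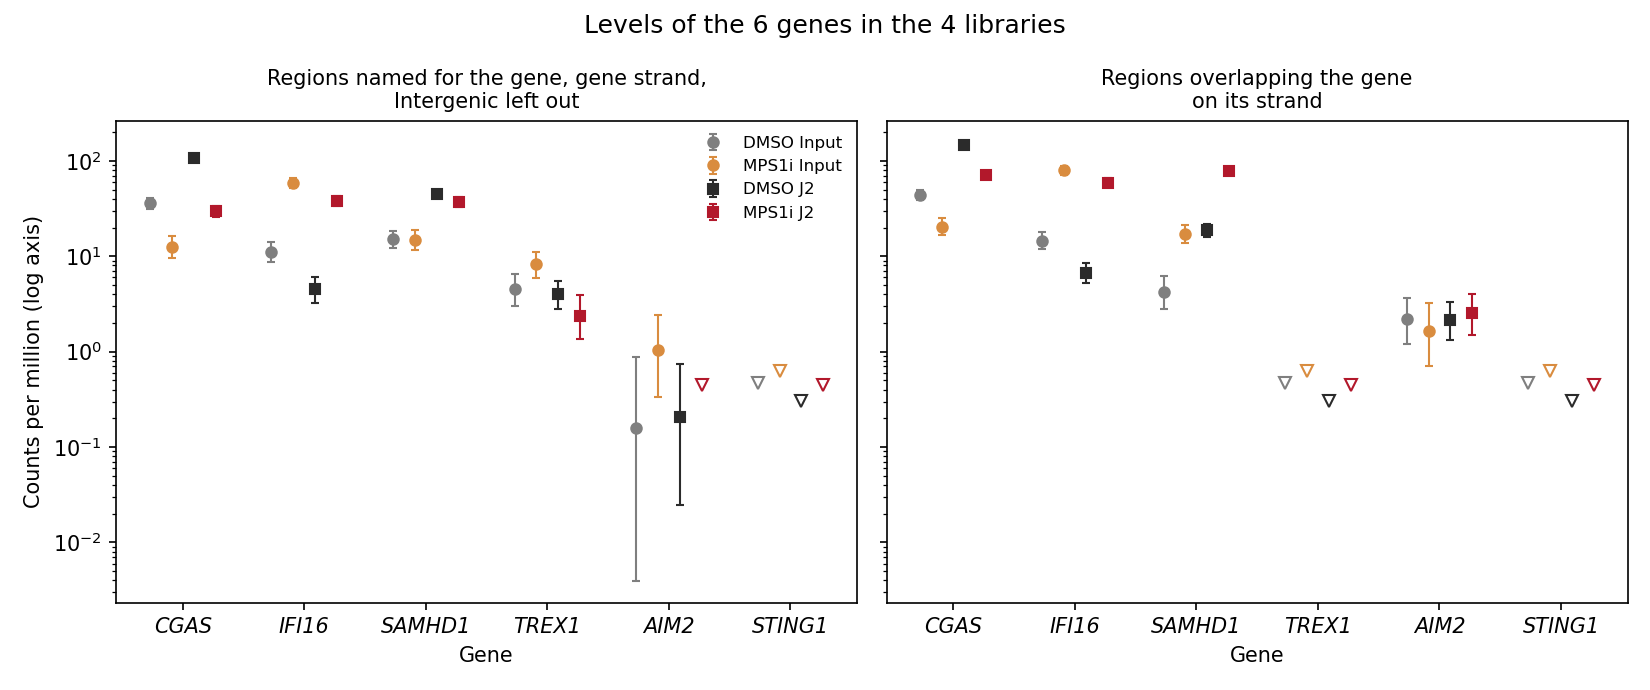
Level in CPM (log axis) of the 6 genes in the 4 libraries, on the left over regions named for the gene and on the right over regions that overlap it; bars are exact 95% Poisson intervals of the count, and open triangles stand for sums of 0 reads, drawn at 3 counts. CGAS was lower and IFI16 higher with the inhibitor in both panels, whereas SAMHD1 was level on the left and higher on the right.

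CGAS, on the minus strand at chr6:73413515-73452276, is the sensor whose product activates STING1. Its named regions held 229 Input counts in DMSO and 61 in MPS1i, that is 35.9 and 12.6 CPM. In J2 they held 1043 and 198 counts, or 107 and 29.6 CPM. Both inhibitor libraries were below their DMSO partners. The log2 ratio was -1.5 (interval -1.94 to -1.1) in Input and -1.85 (-2.08 to -1.63) in J2. These values stood at the 6.8 percentile of genes in Input and at the 3.8 percentile in J2. The summed level of CGAS was higher in J2 than in Input, with a log2 ratio of J2 over Input of 1.57 (1.36 to 1.78) in DMSO and 1.22 (0.81 to 1.67) in MPS1i. Among all genes 20.9% were called higher in J2 in DMSO and 19.2% in MPS1i. The Input and J2 tables list different regions, and for CGAS these were 64 regions of 8404 bases in Input and 91 regions of 16065 bases in J2. Per kb of listed region CGAS stood at 4.27 CPM in Input and 6.63 in J2 in DMSO (log2 0.63) and at 1.5 and 1.84 in MPS1i (0.30), both under 2-fold. The region set thus enters every ratio of J2 over Input here, whereas the change of that ratio between MPS1i and DMSO uses the same regions on both sides. Mitochondrial regions took 24.3% and 20.2% of the Input reads and 0.608% and 0.836% of the J2 reads, and this enters the scale: with them left out of the library sums, 1175 genes were called higher and 1886 lower in J2 than in Input in DMSO in place of 2410 and 1168, and 1311 and 1608 in MPS1i in place of 2146 and 1099. CGAS then stood at 1.17 in DMSO and at 0.91 in MPS1i, the second short of the 2-fold rule. The ratio of J2 over Input (the enrichment) differed by -0.34 (-0.80 to 0.12) between MPS1i and DMSO, which was not called.

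The fall of CGAS was not even along the gene. The stretch from chr6:73414021 to chr6:73423397, at the far end of the GENCODE gene and beyond the end of the RefSeq gene at 73423711, carries the name of DDX43, a helicase gene that lies on the plus strand. On the CGAS strand this stretch held 399 J2 counts in DMSO and 274 in MPS1i (log2 0.01, interval -0.22 to 0.23), and 52 and 38 in Input (-0.05, -0.70 to 0.58). The regions of CGAS that carry its own name held 1041 and 198 in J2 (-1.84) and 226 and 61 in Input (-1.48). The difference between the stretches was 1.85 on the log2 scale in J2 (delta-method interval 1.54 to 2.16) and 1.43 in Input (0.71 to 2.16), larger than counting error in both tables. Over the whole GENCODE gene the ratio was therefore closer to 0, at -1.09 (-1.44 to -0.76) in Input and -1.06 (-1.21 to -0.91) in J2.

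The most-read J2 region of CGAS lay in the far stretch, at chr6:73421391-73422799, and held 219 and 127 counts (log2 -0.24, -0.56 to 0.08), which was not called. Of the regions that carry the name CGAS the most-read was chr6:73438104-73438664, in intron 3 of 4, with 286 J2 counts in DMSO and 56 in MPS1i (log2 -1.79, -2.24 to -1.39). Of all J2 regions with at least 50 counts, 27.2% were called lower and 12.5% higher. The corresponding Input region, chr6:73438192-73438520, held 58 and 17 counts (-1.34, -2.25 to -0.57), where 14.4% of such Input regions were called lower. A region annotated to the same intron, chr6:73439516-73439743, also touches an annotated exon of CGAS and fell from 69 to 5 J2 counts (-3.11, -4.91 to -1.95). In intron 1 chr6:73447832-73448140, over the old LINE elements L1M5 and L1ME3B, fell from 68 to 15 (-1.6, -2.55 to -0.81). Of 36 J2 regions of CGAS with at least 10 counts in both libraries together, 32 were lower and 4 higher with the inhibitor. In Input 7 of 9 were lower. The share of all regions that were lower at this minimum is not given here. Regions without a listed repeat carried 54.3% of the DMSO J2 reads of CGAS and fell from 782 to 213 (-1.33), and regions with an Alu element carried 18.6% and held 268 and 95 (-0.94, not called). The opposite strand was thinly read, at 22 and 6 J2 counts in 1 region of 28743 bases across the gene.

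**Figure D2:**
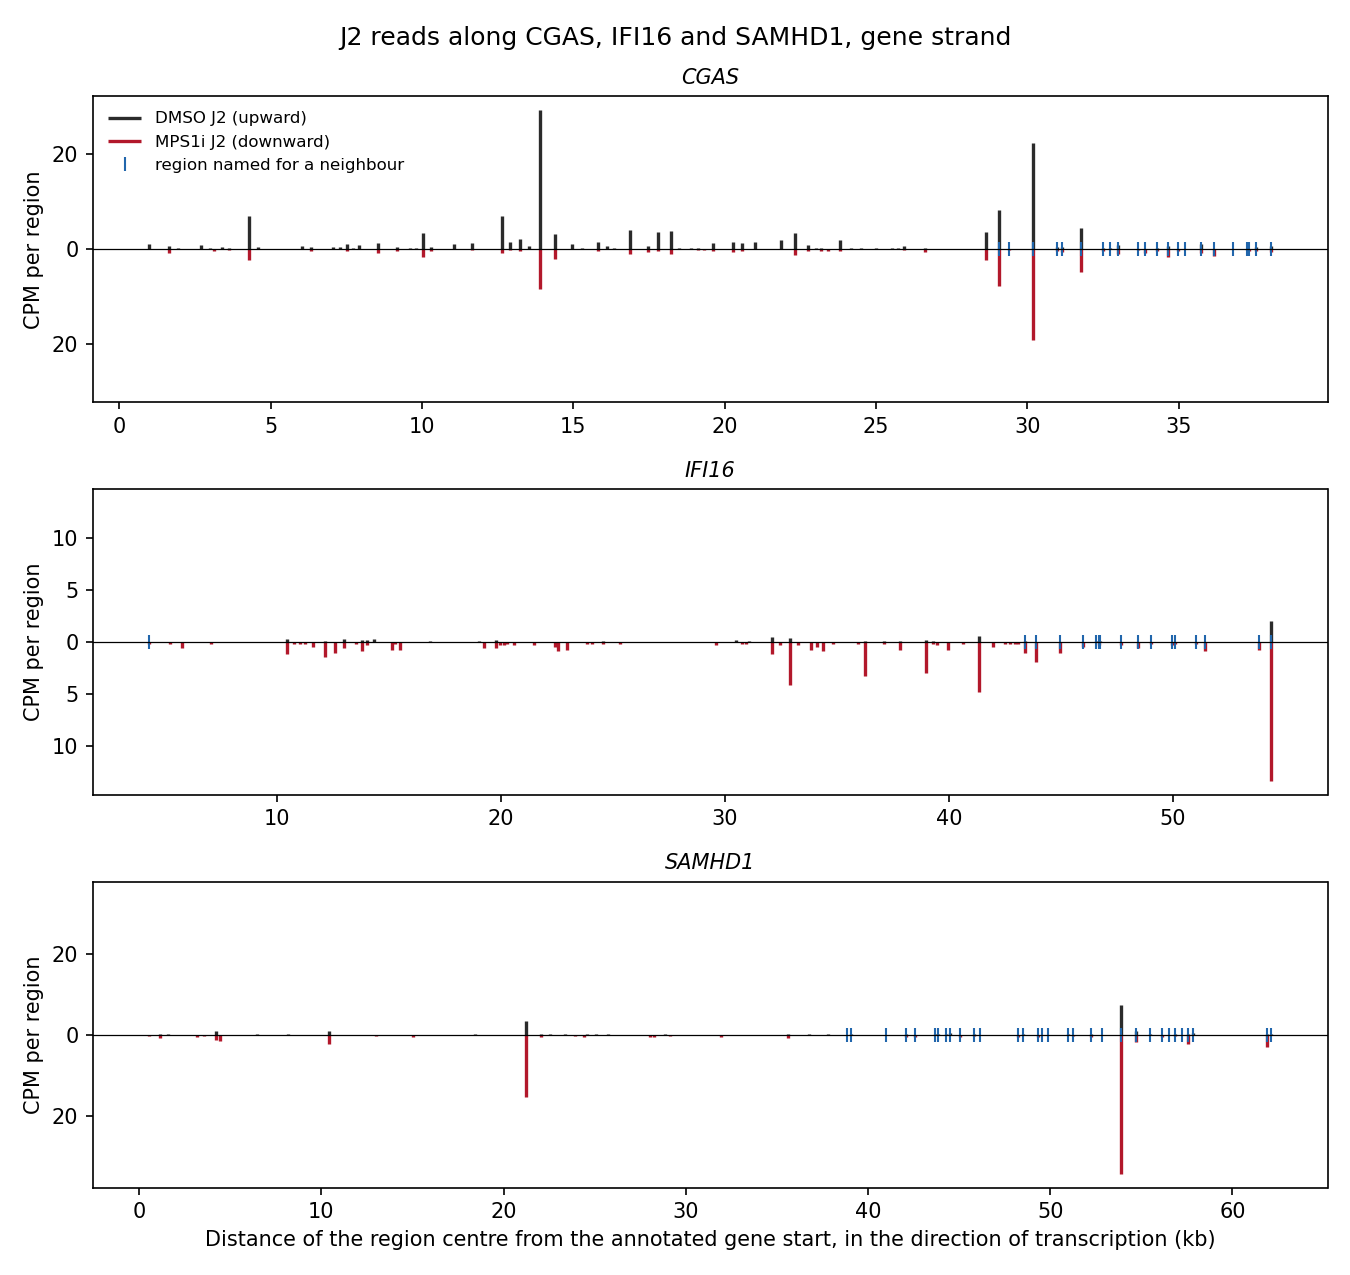
J2 level of each region along CGAS, IFI16 and SAMHD1 on the gene strand, with distance from the gene start on the x axis (kb) and CPM per region on the y axis, DMSO drawn upward and MPS1i downward; blue ticks mark regions that the table names for a neighbouring gene. CGAS lines reach further upward over most of the gene and are about level at the far end, whereas IFI16 and SAMHD1 lines reach further downward.

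IFI16, a nuclear and cytosolic DNA-binding protein of the PYHIN family, lies on the plus strand at chr1:158999968-159055155. RefSeq gives 2 promoter windows for it, and the one further downstream is shown because it holds a pair of GAAA with 1 base between them. The pair searched for as the form read by interferon-activated factors has 2 bases between, and it was in neither window. In this 300-base window of GRCh38.p14, chr1:159009657-159009956 on the plus strand, capitals mark the match to GAAANGAAA at position 197, counted from 1 at the 5' end.
IFI16: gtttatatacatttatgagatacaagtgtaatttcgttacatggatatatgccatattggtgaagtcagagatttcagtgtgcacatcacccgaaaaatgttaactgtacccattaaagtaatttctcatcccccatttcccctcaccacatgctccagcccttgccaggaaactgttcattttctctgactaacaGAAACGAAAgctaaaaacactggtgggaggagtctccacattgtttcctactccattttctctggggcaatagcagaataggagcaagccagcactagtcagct
That motif was chosen after the sequence was read, and 3.12% of 35116 promoter windows held it on either strand. Of the other motifs searched on both strands, a pair of GAAA with 2 bases of any kind between them stood in 3.57% of windows and TTCNNNGAA in 7.66%, and neither was in this window. AIM2 was the only one of the 4 genes with a window (IFI16, SAMHD1, TREX1 and AIM2, 5 windows in all) to hold the wider-spaced pair, read as TTTCTGTTTC at position 61. A match describes the letters of the window only.

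Named regions of IFI16 held 71 Input counts in DMSO and 284 in MPS1i (11.1 and 58.6 CPM). In J2 they held 44 and 253 counts (4.49 and 37.8 CPM). The inhibitor library was higher in both tables, by log2 2.39 (interval 2.02 to 2.79) in Input and 3.06 (2.61 to 3.57) in J2, which is 5.24-fold and 8.33-fold. Summed over all regions that overlap it, IFI16 held 93 and 385 counts in Input (2.44, 2.12 to 2.79) and 66 and 397 in J2 (3.13, 2.76 to 3.54). It stood at the 97.6 percentile of genes in Input and the 98 percentile in J2 by named regions.

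The ratio of J2 over Input of IFI16 lay on the other side of 0 from that of CGAS. Its level in J2 was below that in Input in DMSO (log2 -1.30, -1.88 to -0.75), where 10.1% of 11541 genes were called lower, and the ratio was -0.63 (-0.88 to -0.38) in MPS1i, short of the 2-fold rule. The enrichment differed by 0.67 (0.08 to 1.26) between MPS1i and DMSO, which was not called. Its regions covered 8982 bases in Input and 12335 in J2, and per kb it stood at 1.24 and 0.364 CPM in DMSO (-1.77) and at 6.53 and 3.06 in MPS1i (-1.09).

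All regions of IFI16 with at least 10 counts were higher with the inhibitor, 14 of 14 in Input and 9 of 9 in J2. The minimum is on both libraries together, so a region can pass through the inhibitor reads alone. In Input chr1:159022587-159022845 did so, with 1 and 33 counts. These counts of regions therefore add no support beyond the sums. The most-read in J2 of those that carry its name were chr1:159040814-159041792 with 6 and 32 J2 counts and chr1:159032793-159032980, in intron 7 of 10, with 4 and 28 J2 counts and 6 and 33 Input counts. The most-read of all in J2, chr1:159053929-159054799 in intron 10, is named for AIM2 in the table and held 20 and 90 J2 counts (2.69, 2.01 to 3.50) and, as chr1:159053957-159054685, 11 and 31 Input counts. Repeats other than Alu and L1 carried 51.5% of the DMSO J2 reads of IFI16 (34 and 160 counts, 2.77) and regions with no listed repeat 48.5% (32 and 231, 3.38), while Alu elements held 0 and 1 count. Against the gene strand, 1 region of 45287 bases, chr1:159009870-159055156, held 20 and 53 J2 counts (1.93, 1.19 to 2.77) and 27 and 37 in Input. It ends within 22 bases and 1 base of annotated exon edges of IFI16. Both strands of this stretch were read more in the inhibitor J2 library.

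AIM2, the inflammasome sensor, lies next to IFI16 on the other strand at chr1:159062484-159147096. On its own strand, without Intergenic regions, it held 1 Input count in DMSO and 5 in MPS1i, and 2 and 0 in J2. All regions that overlap the gene held 14 and 8 in Input and 21 and 17 in J2, below the minimum of 50 in each comparison. The reads that the tables give the name AIM2 lay mostly on the opposite strand inside IFI16: 22 and 88 counts in Input (log2 2.37, 1.71 to 3.14) and 23 and 144 in J2 (3.17, 2.55 to 3.90), near the values of IFI16 itself. A further 3 and 38 J2 counts, and 2 and 21 Input counts, lay on that opposite strand within the AIM2 span, downstream of IFI16. A sum of all rows named AIM2 would thus hold mostly reads that lie in IFI16.

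SAMHD1, the deoxynucleotide hydrolase, lies on the minus strand at chr20:36889773-36951901. Its promoter window, chr20:36951659-36951958 of GRCh38.p14, is shown on the minus strand beside that of IFI16, since both genes were higher with the inhibitor over their own bodies; none of the 3 motifs searched was in it.
SAMHD1: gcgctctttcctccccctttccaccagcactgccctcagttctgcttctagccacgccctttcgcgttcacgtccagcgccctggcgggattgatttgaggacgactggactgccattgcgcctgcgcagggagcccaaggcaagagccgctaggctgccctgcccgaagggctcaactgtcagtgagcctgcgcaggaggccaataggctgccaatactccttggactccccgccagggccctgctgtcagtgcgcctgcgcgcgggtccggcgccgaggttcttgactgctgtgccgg
By named regions SAMHD1 held 97 and 72 counts in Input (15.2 and 14.9 CPM, log2 -0.03, interval -0.49 to 0.42) and 444 and 249 in J2 (45.3 and 37.2 CPM, -0.28, -0.52 to -0.06), and it was not called. By overlap it held 27 and 84 counts in Input (4.23 and 17.3 CPM, 2.02, 1.39 to 2.72) and 183 and 522 in J2 (18.7 and 77.9 CPM, 2.06, 1.81 to 2.31), and it was called higher in both.

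The named sum mixed SAMHD1 with RBL1, a retinoblastoma-like gene upstream of it on the same strand at chr20:36996349-37095995. SAMHD1-named regions inside SAMHD1 held 75 and 201 J2 counts (log2 1.96, 1.58 to 2.37) and 5 and 48 Input counts (3.54, 2.34 to 5.35). SAMHD1-named regions inside RBL1 held 337 and 36 J2 counts (-2.66, -3.22 to -2.18) and 83 and 21 Input counts (-1.56, -2.35 to -0.88). Regions between both genes, where no gene is annotated on this strand, held 332 and 76 J2 counts (-1.57, -1.96 to -1.22) and 74 and 42 Input counts (-0.41, -1.0 to 0.15); those annotated as Intergenic were outside the named sum. RBL1 under its own name fell from 1306 to 198 counts in J2 (-2.17) and from 336 to 57 in Input (-2.15). The far part of SAMHD1 was named for TLDC2, a gene on the plus strand, and held 108 and 321 J2 counts (2.12, 1.80 to 2.45) and 22 and 36 Input counts (1.1, 0.30 to 1.94). The ratio over SAMHD1 exceeded that over the RBL1 stretch by 4.72 on the log2 scale in J2 (4.17 to 5.27) and by 3.58 in Input (2.65 to 4.50).

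A pair of short regions carried much of the SAMHD1 signal in J2. The first, chr20:36897959-36898050, is 92 bases over an AluJr element and touches an annotated exon, and it held 71 and 229 counts (log2 2.23, 1.85 to 2.64), 42.6% of all J2 reads on the gene. The second, chr20:36930636-36930760, is 125 bases in intron 5 of 15 with no listed repeat and also touches an exon, and it held 32 and 102 counts (2.21, 1.64 to 2.84). How reads that match many Alu copies were counted is not given in the sources used here. Without the first region the gene still stood at 1.93 in J2. Regions with an Alu carried 55.2% of the DMSO J2 reads of SAMHD1 and held 101 and 290 counts (2.07), and those without a listed repeat held 67 and 184 (2.0). All 8 J2 regions with at least 10 counts in both libraries together, and both such Input regions, were higher. The share of all regions that were higher at this minimum is not given here. The ratio of J2 over Input of SAMHD1 by overlap was log2 2.12 (1.55 to 2.78) in DMSO and 2.16 (1.83 to 2.52) in MPS1i, a change of 0.04 (-0.63 to 0.71). The regions covered 6380 bases in Input and 16113 in J2, and per kb the ratios were 0.81 and 0.83. The change depended on the rows: over regions both named for and overlapping the gene the ratio was 3.16 in DMSO, from 5 Input counts, and 1.59 in MPS1i, a change of -1.57 (-2.90 to -0.25) that was called lower. Counting at most 1 read per named region gave a change of 1.22. That lies near the median of 1.06 over the 6656 genes tested so, of which 3266 were called higher and 0 lower. By the overlap sum 21.0% and 19.0% of genes were called higher in J2 than in Input, 10.6% and 9.88% lower, and 8.93% changed in enrichment upward and 7.81% downward.

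The opposite strand of SAMHD1 moved the other way. A region of 53883 bases, chr20:36897820-36951702 on the plus strand, begins 2 bases and ends 3 bases from annotated exon edges of SAMHD1 and held 307 J2 counts in DMSO and 70 in MPS1i (log2 -1.58, -1.98 to -1.21). Next to it, chr20:36896884-36897776 held 149 and 31 (-1.70, -2.32 to -1.15). All opposite-strand regions within the span that meet no annotated gene held 491 and 110 counts in J2 (-1.6, -1.92 to -1.31) and 70 and 49 in Input (-0.11, -0.67 to 0.43). The strands differed by 3.66 on the log2 scale in J2 (3.28 to 4.05) and by 2.13 in Input (1.32 to 2.94). By summed J2 level the opposite strand was the more read in DMSO (50.1 against 18.7 CPM) and the gene strand in MPS1i (77.9 against 16.4). The opposite-strand regions covered 56553 bases and those on the gene strand 16113. Per base of listed region the gene strand was the more read in both. These regions lie beyond the end of TLDC2, which ends at 36894235 on the plus strand. The counts for TLDC2 were 238 and 66 in J2 (-1.29) and 33 and 32 in Input (0.35, not called). The region above with 149 and 31 J2 counts carries the name TLDC2. A sum by that name thus holds the same reads, and a fall of TLDC2 itself cannot be read from it.

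**Figure D3:**
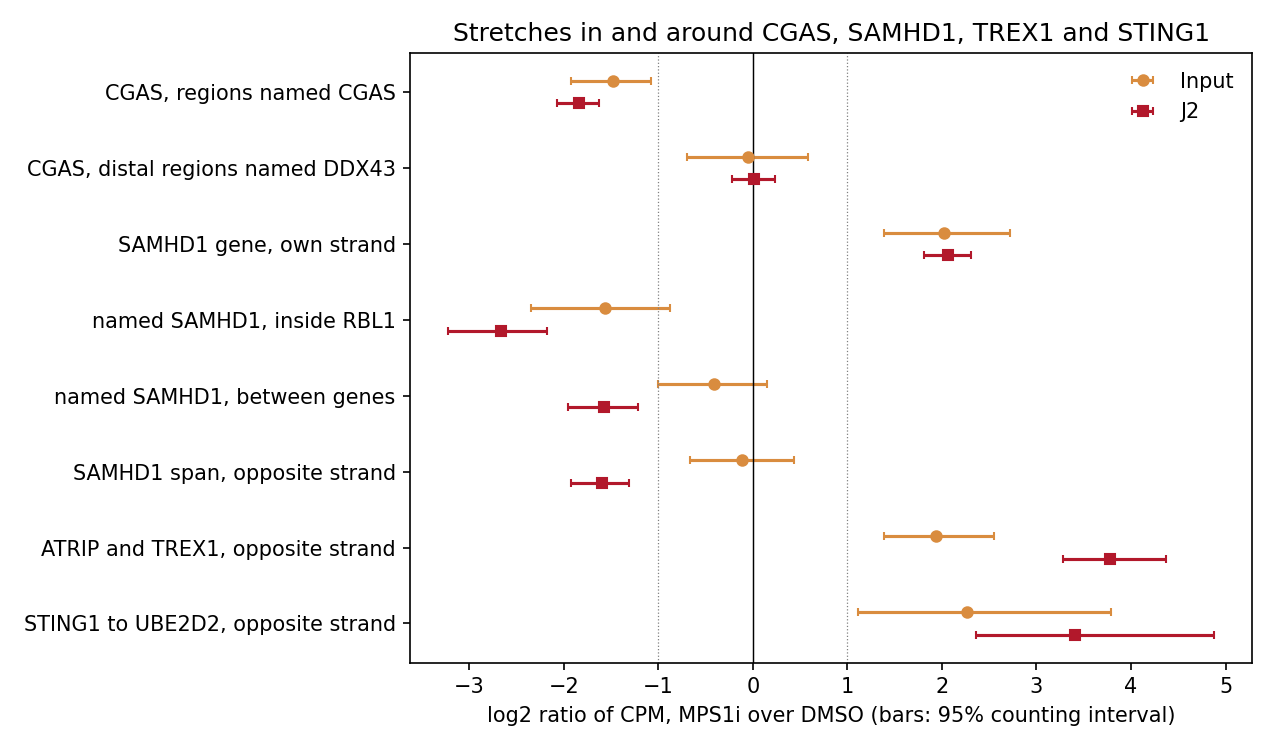
Log2 ratio of MPS1i over DMSO in Input (circles) and J2 (squares) for stretches in and around CGAS, SAMHD1, TREX1 and STING1, with 95% counting intervals; dotted lines mark 2-fold. Stretches at SAMHD1 lie on both sides of 0, at 2.06 in J2 for all regions over the gene itself and -2.66 for SAMHD1-named regions inside RBL1, and the far part of CGAS lies at 0.01.

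TREX1, the exonuclease, is a short gene on the plus strand at chr3:48465811-48467645, inside the end of the annotated ATRIP gene. No listed region overlapped TREX1 on its own strand in either table. The counts under its name were 29 and 40 in Input (log2 0.85, 0.14 to 1.6) and 39 and 16 in J2 (-0.71, -1.68 to 0.14). Neither difference was called. Regions that overlap ATRIP held 27 and 40 of the Input counts and 36 and 10 of the J2 counts, nearly all in its introns (26 and 40, 35 and 10). A region past the end of both genes held the rest, 2 and 0 in Input and 3 and 6 in J2. TREX1 was also called lower in J2 than in Input in MPS1i (-1.76, -2.72 to -0.92), as were 9.85% of 11161 genes. The change of enrichment, -1.57 (-2.64 to -0.49), passed the rule, which 8.92% of 11548 genes did in that direction. It too describes mostly ATRIP introns, with the region past the gene end, and not TREX1. In Input 1 region, chr3:48460799-48460978 in intron 8 of 12, held 12 and 30 of these counts. Without the most-read region of each table, 10 Input and 14 J2 counts were left in MPS1i, the ratio there was 0.0 and the change of enrichment 0.07, both under the minimum.

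The strand opposite to TREX1 was read far more with the inhibitor. The TREX1 window of GRCh38.p14 on the plus strand, chr3:48465580-48465879, is shown because the most-read such region lies across it; none of the 3 motifs was in it.
TREX1: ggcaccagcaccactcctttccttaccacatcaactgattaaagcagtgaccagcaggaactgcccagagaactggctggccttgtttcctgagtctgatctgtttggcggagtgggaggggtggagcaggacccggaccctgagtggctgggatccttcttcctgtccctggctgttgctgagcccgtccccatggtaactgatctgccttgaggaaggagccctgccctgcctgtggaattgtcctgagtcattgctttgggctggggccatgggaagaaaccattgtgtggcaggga
On the minus strand chr3:48464989-48466078 held 2 J2 counts in DMSO and 61 in MPS1i (log2 5.17, 3.56 to 8.56), and chr3:48466861-48467795 held 4 and 33 (3.44, 2.10 to 5.55). The first of these covers the start of TREX1, and the other ends 3 bases before the annotated end of SHISA5, a gene on the minus strand at chr3:48467798-48504826. The signal ran on through ATRIP: from the ATRIP start to the SHISA5 end the minus strand held 33 and 315 J2 counts (3.78, 3.28 to 4.37) and 35 and 103 Input counts (1.94, 1.39 to 2.55). Outside TREX1 alone that stretch held 27 and 218 in J2 (3.54) and 21 and 72 in Input (2.15). SHISA5 under its own name held 144 and 73 J2 counts (-0.43, -0.86 to -0.02) and 271 and 256 Input counts (0.32, 0.06 to 0.57) and was not called.

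STING1, the cGAMP receptor, lies on the minus strand at chr5:139475534-139482935. No Input region and 1 J2 region overlapped it on its strand, and that region of 124 bases held 0 reads in both libraries. Since exons are nearly absent from the regions, this gives no level for the STING1 transcript. The opposite strand within the gene held 1 and 5 J2 counts in a region of 6520 bases. Between STING1 and UBE2D2, a ubiquitin-conjugating enzyme gene that starts at 139526431 on the plus strand, the plus strand held 7 and 54 J2 counts (log2 3.41, 2.36 to 4.88) and 7 and 27 Input counts (2.27, 1.11 to 3.79). No count here measures STING1 itself.

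For each gene with at least 50 counts in both tables, the genes nearest to it in the Input ratio, the J2 ratio and the J2 over Input ratio in DMSO were sought among 7552 genes with at least 100 counts in each table, with Euclidean distance over these 3 log2 values. CGAS lay nearest to SENP5 (0.19), MIR2116 (0.20) and GCNA (0.22). IFI16 lay nearest to OAS1 (0.43), an interferon-induced synthetase that is activated by dsRNA, and then to LINC00428 (0.44) and C11orf91 (0.53). OAS1 held 52 and 216 Input counts and 30 and 231 J2 counts. The named sum of SAMHD1, which holds RBL1 introns, lay nearest to DENND4B (0.12), SMURF2P1-LRRC37BP1 (0.16) and POLR1E (0.17), and that of TREX1 to C3orf62 (0.09), IGFBP4 (0.10) and MANEAL (0.27). The 3 values come from 4 libraries that they share, and the names follow the nearest start for these genes too.

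Around the sensors, 92 genes in 9 lists were examined. In Input 52 could be compared, of which 7 were called higher and 16 lower, with a median log2 ratio of -0.25 against -0.26 for all genes tested, of which 10.6% were called higher and 18.5% lower. In J2 48 could be compared, with 10 higher, 12 lower and a median of -0.41 against -0.26, where 13.0% of all genes were called higher and 22.6% lower. With TMM scaling the list calls were 9 higher and 11 lower in Input and 10 and 10 in J2, and without the most-read region of each gene they were 3 and 20 in Input and 6 and 14 in J2. In both tables at once 44 genes could be compared: 3 were called higher in both (ENPP1, TRIM14 and HMGB1), 7 lower in both, and none in opposite directions. Summed by overlap, all 16 Input and all 12 J2 genes called lower were lower again, whereas only 5 of 7 and 5 of 10 of those called higher were.

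Of the CGAS cofactors, 2 of 4 compared genes rose and 1 fell in Input, and 2 of 3 rose in J2. By overlap 5 could be compared in each table, with 2 higher and 1 lower in Input but 1 higher and 2 lower in J2. TRIM14, which stabilises CGAS, rose in Input (152 and 312 counts, log2 1.43) and J2 (445 and 766, 1.33), and HMGB1, a DNA-bending chromatin protein, rose in both (1.38 and 1.06, the second 0.90 and not called by overlap). NONO, an RNA-binding protein of nuclear paraspeckles, fell in Input from 69 to 9 counts (-2.47), and by overlap held 290 and 54 counts in J2. HMGB1 has processed copies elsewhere in the genome, and how reads shared with them were counted is not given. Of the genes listed for nuclear restraint of CGAS, 3 of 7 compared fell in Input and 2 of 6 in J2, and none rose. Over all genes 10.6% were called higher and 18.5% lower in Input, and 13.0% and 22.6% in J2. LMNB1, a protein of the nuclear lamina, fell from 429 to 121 (-1.42) and from 1418 to 233 (-2.05). PARP1, a DNA-damage sensor, fell from 127 to 16 in Input (-2.55).

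In the list for cGAMP transport and breakdown, genes were called in both directions. ENPP1, the ectoenzyme that hydrolyses cGAMP, rose from 9 to 46 counts in Input (log2 2.69, 1.70 to 3.97) and from 22 to 94 in J2 (2.62, 1.96 to 3.38). ABCC1, a transporter that exports cGAMP, fell from 3772 to 975 (-1.55) and from 14977 to 2584 (-1.99). SLC19A1, a carrier that imports it, fell in Input from 114 to 29 (-1.56). In this list 4 genes were compared in each table, with 1 higher and 3 lower in Input and 1 higher and 2 lower in J2. Over all genes 10.6% were called higher and 18.5% lower in Input, and 13.0% and 22.6% in J2.

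**Figure D4:**
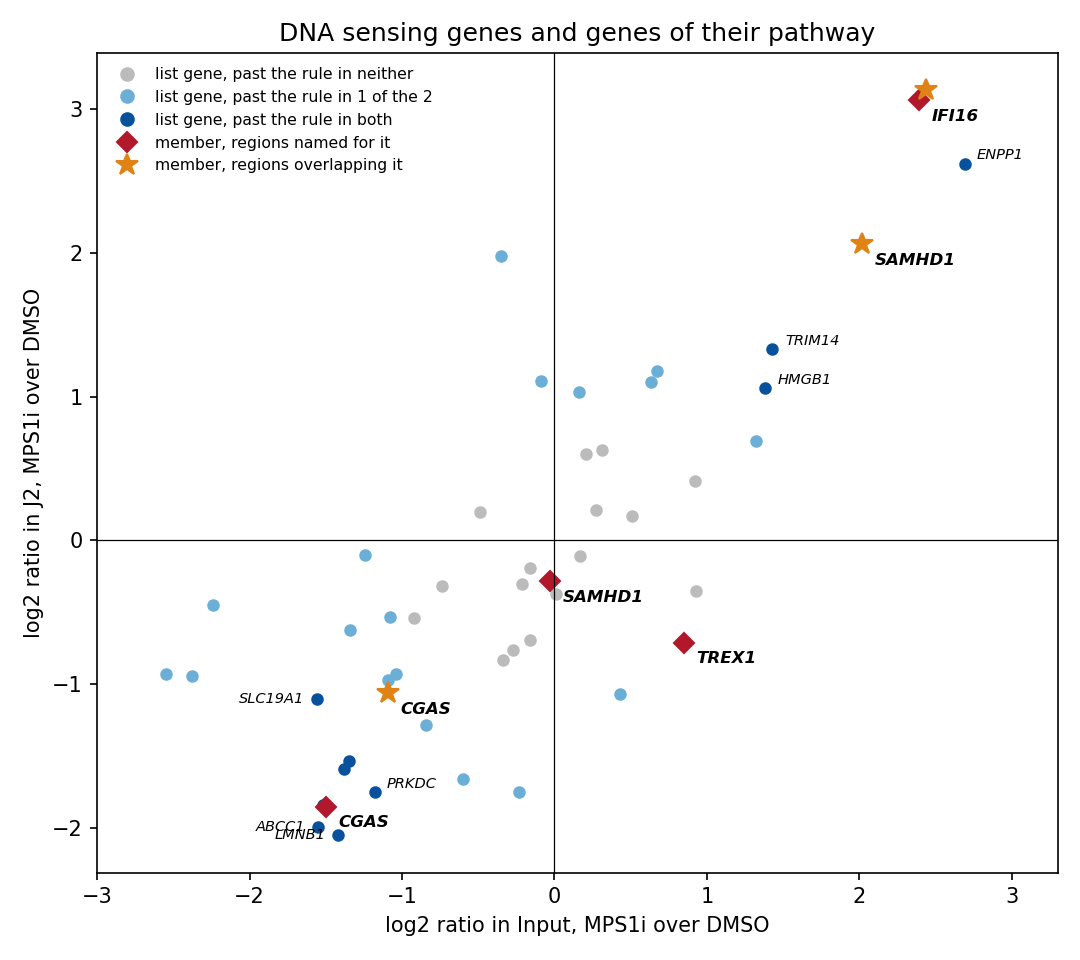
Log2 ratio of MPS1i over DMSO in Input (x axis) and J2 (y axis) for the 44 list genes compared in both tables (circles, coloured by how many of the tables called them, with names for some) and for the DNA sensing genes, by named regions (diamonds) and by overlap (stars). IFI16 stands in the upper right corner beside ENPP1, CGAS among the genes lower in both, and SAMHD1 moves from near the origin to 2.02 and 2.06 when summed by overlap.

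Of the kinases and transcription factors downstream of STING1, 3 of 7 rose and 1 fell in Input. By overlap 1 of 6 rose and 1 fell in Input, and 1 of 6 rose and 2 fell in J2. Over all genes, by name, 10.6% were called higher and 18.5% lower in Input, and 13.0% and 22.6% in J2. IRF3, the factor that STING1 signalling activates, held 18 and 41 named counts in Input (log2 1.56), but by overlap it was below the minimum. RELA rose from 24 to 46 in Input (1.32), and STAT6 held 26 and 44 (1.15), which was 0.58 and not called by overlap. NFKB1 held 9 and 89 named J2 counts (3.78) but 608 and 430 by overlap (0.05, not called). In J2, where 1 of 6 rose and 1 fell, TBK1, the kinase that STING1 recruits, fell from 1162 to 326 counts (-1.28, -1.47 to -1.11); it lies outside the rule for named genes and was picked after its value was seen. Among 19 genes for STING trafficking and turnover, 1 of 13 rose and 2 fell in Input, and 1 of 12 rose and 3 fell in J2. ZDHHC1, a palmitoyltransferase that associates with STING1, rose in Input (22 and 48, 1.51), ZDHHC3 of the same family rose in J2 (237 and 351, 1.11), and SEC24C, a coat protein of export from the endoplasmic reticulum, fell in J2 (243 and 49, -1.75).

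Among 13 other DNA sensors, 7 were compared in each table, of which 1 fell in Input, and 3 rose and 1 fell in J2. By overlap 8 were compared in each, of which 1 fell in Input, and 2 rose and 1 fell in J2. Over all genes, by name, 10.6% were called higher and 18.5% lower in Input, and 13.0% and 22.6% in J2. HNRNPA2B1, a nuclear RNA-binding protein reported to sense viral DNA, rose in J2 from 95 to 258 counts (log2 1.98, 1.64 to 2.34) and stood at 209 and 124 in Input, a change of enrichment of 2.34 (1.87 to 2.80). In that comparison 9.63% of genes were called higher. LRRFIP1 rose in J2 (517 and 800, 1.18), but stood at 0.88 and was not called by overlap. POLR3A, the large subunit of RNA polymerase III, which can transcribe cytosolic DNA into an RNA ligand, fell in J2 (390 and 84, -1.66).

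In the DNA removal list 2 of 2 compared genes fell in Input and 2 of 3 in J2. By overlap 2 of 5 fell in Input and 3 of 6 in J2. Over all genes, by name, 10.6% were called higher and 18.5% lower in Input, and 13.0% and 22.6% in J2. RPA1, the single-stranded DNA binding subunit, fell from 264 to 38 in Input (log2 -2.38), and PLD3, a lysosomal exonuclease, from 70 to 15 in J2 (-1.64). Of the DNA damage proteins linked to sensing, 3 of 7 fell in Input and none rose, and 1 of 6 fell and 1 rose in J2. By overlap 3 of 7 fell in Input and 2 of 7 in J2, and none rose. XRCC6, a subunit of Ku, fell in Input (276 and 44, -2.24) and PRKDC, the kinase that Ku recruits, in J2 (4306 and 873, -1.75). Of 9 inflammasome partners of AIM2 only IL18, a cytokine that inflammasomes mature, could be compared: it held 542 and 637 Input counts (0.63, not called) and rose in J2 from 342 to 500 (1.1, 0.89 to 1.30).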

How the data were processed

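Total RNA and J2-bound RNA of NCI-H1944 cells were sequenced with the SMARTer stranded total RNA kit, per the labels' protocols. The authors deposited raw whole-number read counts per stranded region, 1 table per kind of RNA. STAR, featureCounts and HOMER, the trimmers cutadapt, Trimmomatic and Trim Galore, and build GRCh38 (hg38) are named per the submitters' processing notes. Not given in the sources used here are versions, the rule by which regions were called and the treatment of duplicate and multiply mapped reads. Per the file headers, each region carries an annotation, the gene with the nearest start and the repeats on it. Rows without a gene name, 4642 in Input (23.6% of DMSO Input reads) and 7456 in J2 (0.65% of DMSO J2 reads), stayed in the library sums and out of the gene sums.

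Counts were summed per gene over rows with its name, on its strand in GENCODE release 29 (strand known for 94.5% of Input and 94.6% of J2 rows), without Intergenic rows, and scaled to the summed count (Python 3.11.15, pandas 2.3.3, scipy 1.17.1). Overlap sums used bedtools 2.31.1 and any overlap on the same strand. Log2 ratios had 0.5 counts added per library. The change of J2 enrichment had a 95% delta-method interval on the 4 counts and needed at least 50 J2 and 20 Input counts. TMM factors came from edgeR 4.0.16 and R 4.3.3. The calling code was checked on simulated counts. Promoter windows are those of RefSeq on GRCh38.p14, 250 bases before to 50 after a start.

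The 6 genes and the lists were chosen with earlier results of these data known. Named are the 6 genes, TTK, up to 8 called list genes per direction and table with the largest ratio, the 3 nearest genes per member and up to 3 most-read regions per member and table; neighbouring genes and further regions were added where the reads lay in them. Alternatives were other scalings, other choices of rows, at most 1 read per region, leaving out the most-read region, other count minimums and a pseudocount of 1; the sums over regions both named for and overlapping a gene, and the overlap sum without the most-read region, were added after the data were seen. 1 library per group allows no test across replicates. Some genes that the rule names are not reported here.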

Additional observations from a re-analysis of the deposited data

Results flagged for a closer look

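Reads on the opposite strand, outside the sum of the gene itself, were higher in the inhibitor library for 4 of the 6 genes. This holds for the classes of regions named below. Within CGAS and SAMHD1 the opposite strand was lower with the inhibitor in J2, as given above. The share of all genes with a higher opposite strand is not given here. With both strands and Intergenic rows counted, more genes were called higher than lower in both tables, the reverse of the reported setting. A rise of such reads is thus not particular to these genes. On the opposite strand of AIM2, intron regions held 91 counts in MPS1i Input against 22 in DMSO, and 150 in MPS1i J2 against 26. Most of these lie inside IFI16 on its own strand, as the report describes, and are part of its overlap sum. On the opposite strand of IFI16, intron regions held 54 counts in MPS1i J2 against 25 in DMSO. Promoter regions against TREX1 held 61 counts in MPS1i J2 against 2 in DMSO. Intergenic regions against STING1 held 50 counts in MPS1i J2 against 7 in DMSO. No replicate exists for any of these differences.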

How the results depend on the processing

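No paired analysis was possible because each condition gave 1 lysate: its Input and J2 libraries come from that lysate, which makes 1 pair per condition, and MPS1i and DMSO share no more than the replicate number 1. Without replicates, and with gene sums of 16 to 1043 reads for the 4 compared genes, only counting error is covered. Of the values that summarise a comparison or a gene's ratio between conditions, 138 alternatives kept direction and call, 28 moved, 7 reversed, 4 passed the rule that the reported value did not and 3 no longer passed it, and 27 alternatives over all results held under 10 reads and are not given. The cause of the changes below was not tested. CGAS stayed lower and IFI16 higher under TMM (-1.24 and 2.65 in Input, -1.59 and 3.31 in J2).

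SAMHD1 turned from about level to higher when only regions on its gene counted: 2.02 in Input and 2.06 in J2 by overlap, 2.0 and 1.93 without the most-read region, and 3.54 and 1.96 for regions both named for and overlapping it. Its J2 value was -0.03 with TMM, -0.02 with the median set to 1, -0.70 with Intergenic regions, -0.90 over all rows and both strands, and -0.94 without its most-read region. TREX1 in Input passed the rule at 1.12 with TMM, 1.11 with the median set to 1 and 1.11 over all rows, and moved to -0.34 without its most-read region. Over all rows TREX1 stood at 1.87 in J2, at 0.20 for J2 over Input in MPS1i, and at 0.75 for the change of enrichment, which was 0.07 without the most-read region.

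Counting at most 1 read per region gave 0.84 for IFI16, -0.93 for SAMHD1 and -1.19 for TREX1 in Input, and -0.50 for CGAS and 0.29 for SAMHD1 in J2. The change of enrichment was 1.22 for SAMHD1 and 0.95 for TREX1. IFI16 in Input and CGAS in J2 were then not called. This setting moved all genes: the median was -1.12 in Input, with 22 genes called higher and 2875 lower. It was -0.01 in J2 and 1.06 in the change of enrichment. SAMHD1 and TREX1 in Input thus lay near the median, and IFI16 above it. Restricting to classes other than intron and Intergenic gave -1.29 for SAMHD1 in Input, and -0.73 for CGAS, -1.27 for SAMHD1 and 1.08 for TREX1 in J2, where CGAS was not called and SAMHD1 was called lower.

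Over all genes, the 3130 calls in Input became 4977 over all rows, 484 over classes other than intron and Intergenic, 4699 with a minimum of 20 counts and 6271 with none. The 4213 calls in J2 became 6807, 647 and, with no minimum, 7008, and 702 with at most 1 read per region. J2 over Input in DMSO had 3578 calls, and 1155 over the same classes, 443 with at most 1 read per region and 5394 with no minimum. In MPS1i these were 3245, 1088, 1470 and 6037. The change of enrichment had 2142 calls, and 454, 3266 and 3304. Setting the median to 1 gave 1562 higher and 1270 lower in Input and 2070 and 1783 in J2.
J2 over Input split 1457 higher to 1659 lower in DMSO and 1517 to 1463 in MPS1i with TMM, and 1097 to 1959 and 1171 to 1756 without the 100 most-read regions. That last scaling left CGAS at 0.85 and SAMHD1 at 0.94 in MPS1i, not called, and IFI16 at -1.01, called lower.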
